A study of Homo sapiens with 21 samples.

Results

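The genes described here are 48 genes of the mitotic spindle and the kinetochore, with the kinases, cyclins and cytokinesis factors that act with them. They were chosen by symbol from the 58735 genes of the deposited expression table, measured in MDA-MB-453 cells after cadmium, calcium, GSK4716 or diethylstilbestrol (DES). Each symbol matched a single entry. A mean of at least 0.5 FPKM (fragments relative to the length of the gene and the depth of the library) over all libraries was needed for a test, and 14686 genes passed it. Of the 48 mitotic genes 47 passed. PRC1, which bundles the microtubules of the spindle midzone, was the exception.

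Before a cell divides, CDK1 with cyclin A or cyclin B phosphorylates many proteins and drives entry into mitosis, and PLK1, AURKA and NEK2 help to build the spindle from the separated centrosomes. Microtubules attach to chromosomes at the kinetochore, a protein assembly on centromeric chromatin marked by the histone CENPA, through the NDC80 complex (NDC80, NUF2, SPC24 and SPC25). The spindle checkpoint (TTK, BUB1, BUB1B, BUB3, MAD2L1) holds CDC20 inactive until every kinetochore is attached. CDC20 then activates the anaphase-promoting complex, which works with UBE2C to mark securin (PTTG1) and cyclin B for destruction. Most of these genes are transcribed late in the cell cycle. Their promoters are bound by the MuvB complex, which represses them as part of DREAM in resting cells and activates them with B-MYB and FOXM1 in G2.

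MDA-MB-453 cells come from a human breast carcinoma. The study asked whether both metals change gene expression through ESRRB, an estrogen-related receptor. There were 7 groups of 3 libraries, 21 in all: control, calcium (10 mM), cadmium (10 μM), GSK4716 (5 μM), a synthetic agonist of estrogen-related receptors, DES (10 μM), which inhibits them, and DES followed 3 h later by calcium or by cadmium. Treatments lasted 24 h, and DES alone is listed without the 3 h lead. That lead and the metal therefore cannot be told apart between DES alone and DES with a metal, nor in the interactions. All cells had first been moved from serum to charcoal-stripped serum. Calcium and GSK4716 were then given without serum and cadmium with a reduced amount of stripped serum, and a single control is listed whose medium at that step is not given. The medium and the treatment therefore cannot be told apart in at least 1 comparison with the control, nor between cadmium and either calcium or GSK4716. The labels do not say whether replicates came from separate cultures, so the p-values measure the spread between these libraries only.

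The libraries held 14435925 to 28424805 fragments on genes (median 18314738). The luminal markers ERBB2, KRT8, KRT18, KRT19, FOXA1, GATA3, SPDEF and EPCAM were present in every library, with ERBB2 between 97.2 and 210.0 FPKM. ESR1, PGR, PTPRC, COL1A2 and PECAM1 stayed under 0.22 FPKM. KRT5 and KRT14 did not pass 0.70 FPKM, and the fibroblast marker COL1A1 lay between 9.34 and 32.7 FPKM.

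In 2 libraries most mitotic genes were under 1 FPKM. In cadmium replicate 3, 38 of the 47 tested genes were under 1 FPKM and their summed level was 69.5 FPKM, against 596 and 650.4 FPKM in cadmium replicates 1 and 2. In DES with cadmium replicate 2, 35 of the 47 were under 1 FPKM and the sum was 91.1 FPKM, against 1298 and 916 FPKM in the other libraries of that group. In each of the other 19 libraries at most 8 of the 47 were under 1 FPKM. All 47 genes in DES with cadmium replicate 2, and 44 of 47 in cadmium replicate 3, lay below both other libraries of their group, where 29.7% and 35.9% of all tested genes did. Results with either cadmium group are therefore given with and without these libraries.

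**Figure D1:**
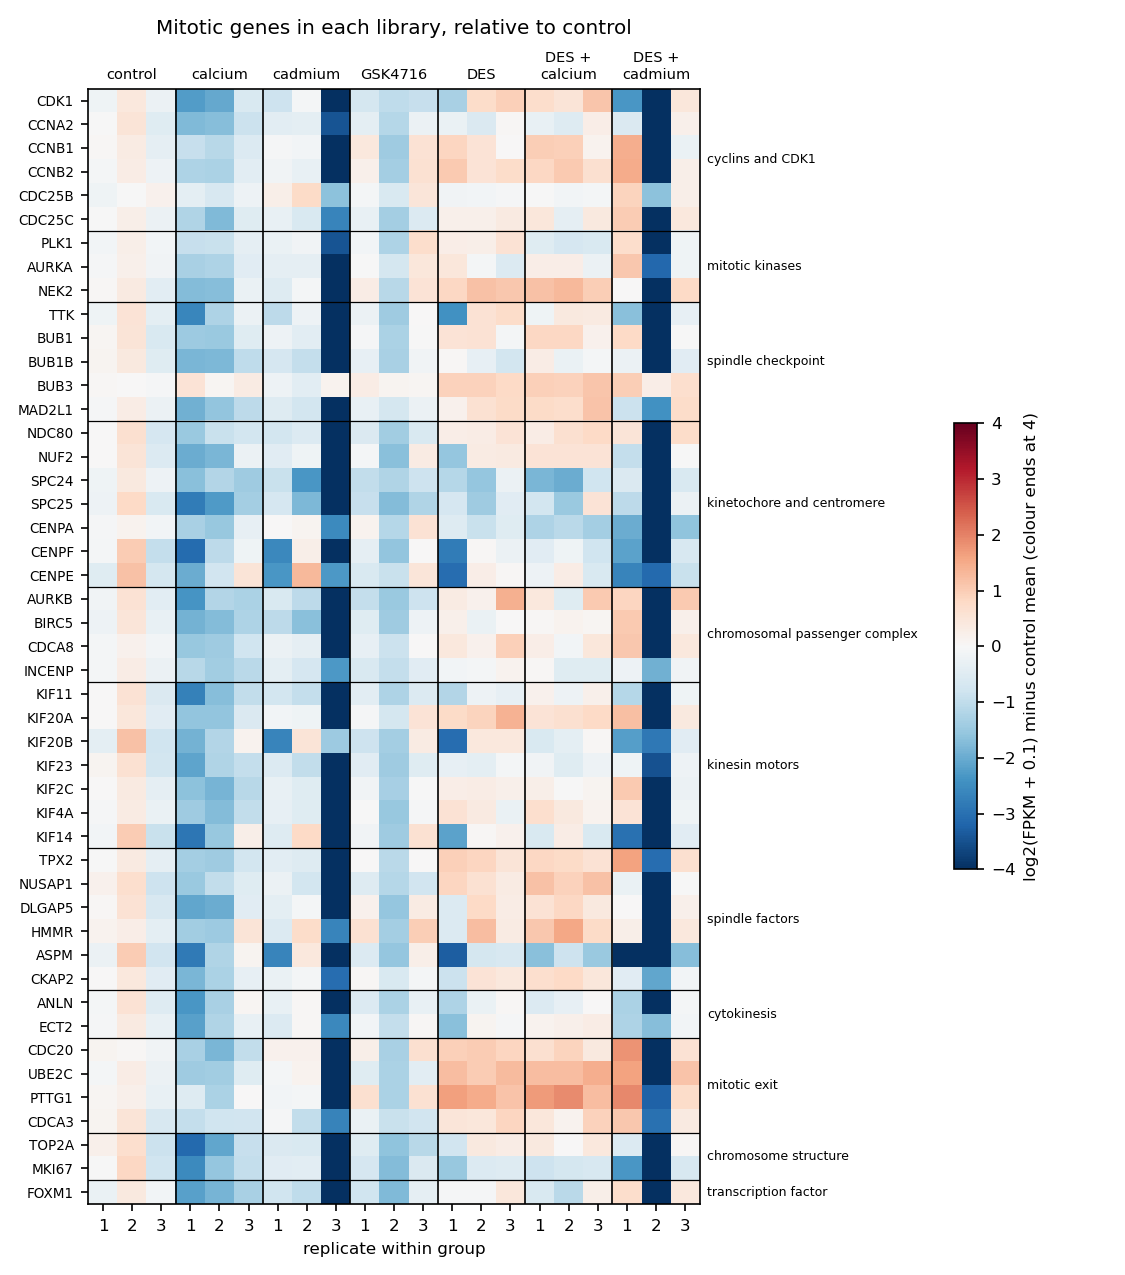
Each row is 1 of the 47 tested mitotic genes, sorted by role, and each column 1 library, with colour for log2(FPKM + 0.1) minus the mean of the 3 control libraries. The calcium columns are mostly blue, the DES and DES with calcium columns mostly pale to red, and cadmium replicate 3 and DES with cadmium replicate 2 stand apart in dark blue in nearly all genes, with BUB3 an exception in both.

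The promoters of the set share sequence elements that were not used to choose it. In the RefSeq windows of 250 bases before to 50 bases after the start (GRCh38.p14), 41 of the 48 genes had an entry. AURKA, BIRC5, BUB3, FOXM1, TPX2, TTK and UBE2C had none. The CHR element (cell cycle genes homology region, searched as TTTGAA or TTCGAA on both strands), which MuvB contacts, was found in 31 of the 41 (75.6%) and in 19.5% of all 27305 genes with a window. CCAAT on either strand, the motif of the factor NF-Y, was found in 34 of the 41 (82.9%) and in 39.7% of all genes. Both were present in 27 (65.9%), compared with 7.85% of all genes, and at least 2 CCAAT matches in 23 (56.1%), compared with 12.9%. A CHR match can share its end base with a CCAAT match. These are letter matches only.

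The 250 bases before the start are given for 5 genes, 5′ to 3′ on the strand of the gene, with CHR and CCAAT matches on either strand in capitals. CDC20, KIF4A and BUB1B fell with calcium, CCNB2 rose with DES, and KIF2C, which also fell with calcium, holds neither motif in its window. The regions are chr1:43358731-43358980, chrX:70289854-70290103, chr15:40160819-40161068, chr15:59104896-59105145 and chr1:44739587-44739836, all on the plus strand.
CDC20: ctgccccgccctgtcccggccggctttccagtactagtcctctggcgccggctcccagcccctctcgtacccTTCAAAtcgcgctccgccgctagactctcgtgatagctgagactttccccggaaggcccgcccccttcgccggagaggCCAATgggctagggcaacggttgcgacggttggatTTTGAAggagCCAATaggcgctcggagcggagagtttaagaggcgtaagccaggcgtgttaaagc
KIF4A: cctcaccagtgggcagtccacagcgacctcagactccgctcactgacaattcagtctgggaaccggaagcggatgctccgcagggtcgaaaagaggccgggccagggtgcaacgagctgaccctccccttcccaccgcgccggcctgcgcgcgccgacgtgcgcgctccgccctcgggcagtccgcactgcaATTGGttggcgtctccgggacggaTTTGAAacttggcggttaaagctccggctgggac
BUB1B: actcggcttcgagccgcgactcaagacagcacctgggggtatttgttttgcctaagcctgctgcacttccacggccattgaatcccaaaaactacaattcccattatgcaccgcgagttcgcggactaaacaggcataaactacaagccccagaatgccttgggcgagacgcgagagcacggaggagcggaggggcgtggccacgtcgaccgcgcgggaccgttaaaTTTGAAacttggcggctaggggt
CCNB2: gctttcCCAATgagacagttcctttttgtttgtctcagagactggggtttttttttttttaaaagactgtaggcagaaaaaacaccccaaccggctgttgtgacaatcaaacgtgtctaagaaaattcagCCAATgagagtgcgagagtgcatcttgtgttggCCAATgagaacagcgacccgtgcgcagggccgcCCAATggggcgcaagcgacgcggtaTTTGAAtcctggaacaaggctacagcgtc
KIF2C: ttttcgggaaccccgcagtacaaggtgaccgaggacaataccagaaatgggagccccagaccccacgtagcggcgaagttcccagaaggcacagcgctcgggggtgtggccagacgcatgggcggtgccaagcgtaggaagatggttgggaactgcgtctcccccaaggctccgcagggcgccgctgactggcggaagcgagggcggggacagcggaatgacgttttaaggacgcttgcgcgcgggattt
The CHR match nearest to the start began 65 bases before it in CDC20, 34 in KIF4A, 23 in BUB1B and 29 in CCNB2. Of the 41 genes, 28 had a CHR match from 60 bases before the start to the end of the window. CCNB2 held 4 CCAAT matches, CDC20 held 2, KIF4A 1 and BUB1B none.

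Levels in the control libraries are given on the FPKM scale, which is per length. UBE2C (ENSG00000175063, chr20:45812576-45816957, GRCh38), the ubiquitin-conjugating enzyme of the anaphase-promoting complex, was highest at 60.8 ± 12.1 FPKM (mean ± SD, n = 3 here and below). CDC20 (49.4 ± 4.58 FPKM), CCNB1 (40.5 ± 9.44 FPKM) and TPX2 (39.5 ± 9.597 FPKM), a factor that activates AURKA on the spindle, followed, and their ranges overlapped with each other. CENPE, a kinetochore motor, was the lowest of the tested genes at 1.64 ± 1.33 FPKM. PRC1 (chr15:90966038-90995629) was listed at 0.2300 ± 0.0531 FPKM. It overlaps AC068831.7 on the same strand and PRC1-AS1 on the other, and AC068831.7 had a median of 0.847 FPKM over all libraries, so the value of PRC1 is uncertain. The set is spread over 19 chromosomes, with 8 genes on chromosome 1. In the table, 27 of the 48 overlap another gene on either strand and 9 on the same strand, and their values carry the same doubt.

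Treatment with calcium lowered 11 of the 47 tested mitotic genes. All but BUB3 had a negative log2 fold change against the control, with a median of -1.24 over the 47 genes beside -0.01 over all genes tested. By limma with Benjamini-Hochberg adjustment the 11 that fell made up 23.4% and 0 rose, where 2.53% of all genes fell. All 3 calcium libraries lay below all 3 control libraries for 30 of the 47 genes, which held for 13.6% of all genes. Fewer cells in mitosis and less of these RNAs in each cell cannot be told apart in such bulk samples.

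FOXM1, the transcription factor of G2 genes, lies at chr12:2857681-2877155 (ENSG00000111206). It was at 17.5, 27.6 and 19.3 FPKM in control replicates 1, 2 and 3 and at 4.61, 5.71 and 8.55 FPKM with calcium. The groups did not overlap, and the fold change was -1.77 ± 0.28, adjusted p = 0.0236 (log2 fold change ± SE on the log2(FPKM + 0.1) scale, as in the following).

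In the chromosomal passenger complex, which corrects faulty attachments and acts again in cytokinesis, 3 of 4 genes fell. BIRC5 (survivin), which brings the complex to the centromere, was at 14.02, 22.3 and 13.1 FPKM in the control and 4.23, 4.75 and 6.81 FPKM with calcium (-1.62 ± 0.27, adjusted p = 0.0273). CDCA8 (borealin) and INCENP, the scaffold of the complex, had log2 fold changes of -1.24 and -1.19. AURKB, its kinase, was at 9.25, 15.5 and 7.59 FPKM and 1.92, 4.54 and 4.22 FPKM. Its groups did not overlap either, but the change of -1.59 ± 0.41, adjusted p = 0.0749 did not pass the threshold.

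The spindle checkpoint divided. BUB1B (BUBR1), a subunit of the inhibitor of CDC20, fell (-1.54 ± 0.31, adjusted p = 0.0426). MAD2L1, which folds around CDC20, was at 9.25, 11.8 and 8.02 FPKM in the control and 2.45, 3.12 and 4.61 FPKM with calcium and fell as well (-1.51 ± 0.27, adjusted p = 0.0306). The kinases TTK and BUB1 had fold changes of -1.37 and -1.13 that did not pass. BUB1 was at 8.18, 11.3 and 5.12 FPKM in the control and 2.79, 2.75 and 5.55 FPKM with calcium, so that calcium replicate 3 overlapped with the control. BUB3, the WD-repeat protein that docks BUB1 and BUB1B, was at 33.6, 33.1 and 31.4 FPKM in the control and 47.5, 34.7 and 40.7 FPKM with calcium. All 3 calcium libraries were above the control (0.31 ± 0.14, adjusted p = 0.2401), the only gene of the 47 with that order.

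Among the kinetochore and centromere genes 1 of 7 fell. SPC24, which anchors the NDC80 complex, changed by -1.42 ± 0.23, adjusted p = 0.0241, and its partner SPC25 by -2.14 ± 0.50, adjusted p = 0.0586. NDC80 was at 2.85, 4.48 and 1.75 FPKM and 0.933, 1.48 and 1.65 FPKM, and CENPA at 7.396, 8.43 and 7.08 FPKM and 3.05, 2.62 and 6.01 FPKM. For both genes every calcium library lay below every control library, and neither passed the test. NUF2, CENPF and CENPE had fold changes of -1.35, -1.43 and -0.75, with calcium replicate 3 within the range of the control in each.

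Of the kinesins, motors that slide or depolymerise spindle microtubules, 2 of 7 fell. KIF2C (MCAK) changed by -1.54 ± 0.26, adjusted p = 0.02801 and the chromokinesin KIF4A by -1.37 ± 0.24, adjusted p = 0.0306. KIF11 (Eg5), which pushes the spindle poles apart, was at 15.3, 22.7 and 10.1 FPKM in the control and 2.27, 4.602 and 7.68 FPKM with calcium (-1.79 ± 0.50, adjusted p = 0.0898). KIF20A, which moves the passenger complex to the midzone, was at 11.1, 15.2 and 8.01 FPKM and 3.62, 3.64 and 7.32 FPKM (-1.25 ± 0.36, adjusted p = 0.09804). In both the groups did not overlap although the adjusted p missed the threshold. KIF23, KIF14 and KIF20B had fold changes of -1.43, -1.39 and -0.97.

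TPX2 alone of the 6 tested spindle factors fell. It was at 38.5, 49.5 and 30.4 FPKM in the control and 15.1, 14.4 and 23.01 FPKM with calcium (-1.17 ± 0.25, adjusted p = 0.04902). ASPM, a protein of the spindle poles, was at 5.99, 14.5 and 4.102 FPKM and 0.905, 3.01 and 7.71 FPKM. Its calcium libraries spread more than 8-fold and reached into the control range. DLGAP5, NUSAP1, CKAP2 and HMMR, all microtubule-binding proteins, had fold changes from -1.51 to -0.77.

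In mitotic exit CDC20 fell, from 52.8, 51.3 and 44.2 FPKM to 19.9, 13.9 and 25.1 FPKM (-1.37 ± 0.23, adjusted p = 0.0258). UBE2C was at 56.5, 74.3 and 51.4 FPKM and 22.4, 22.9 and 42.7 FPKM (-1.10 ± 0.29, adjusted p = 0.0803). Both genes separated the groups completely, while only CDC20 passed the test. PTTG1 and CDCA3, a trigger of WEE1 destruction, had fold changes of -0.59 and -0.85. The cytokinesis genes ANLN (anillin, which scaffolds the contractile ring) and ECT2 (which activates RhoA there) had -1.18 and -1.21. ANLN was at 10.2, 16.3 and 7.58 FPKM in the control and 2.08, 4.35 and 11.5 FPKM with calcium, overlapping the control through replicate 3.

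None of the 6 cyclin and CDK1 genes and none of the 3 mitotic kinases passed, although all 9 had an unadjusted p under 0.05. CDK1 was at 20.4, 30.7 and 19.3 FPKM in the control and 4.84, 5.53 and 15.2 FPKM with calcium (-1.62 ± 0.46, adjusted p = 0.0943). CCNB1 was at 41.05, 49.6 and 30.8 FPKM and 20.8, 18.3 and 26.9 FPKM (-0.87 ± 0.23, adjusted p = 0.0758). Every calcium library was below every control library for both. PLK1 was at 17.1, 22.1 and 17.1 FPKM and 9.797, 9.95 and 14.4 FPKM (-0.73 ± 0.20, adjusted p = 0.08597). AURKA, at 18.1, 21.5 and 16.8 FPKM and 7.497, 7.85 and 13.7 FPKM, had an adjusted p of 0.0737. These too did not overlap between groups. CCNA2, CCNB2, NEK2, CDC25C and CDC25B, the last a phosphatase that activates CDK1, had fold changes of -1.44, -0.97, -1.24, -1.14 and -0.40.

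TOP2A, which untangles sister chromatids, had one of the largest fold changes of the set and one of the widest spreads. It was at 18.7, 25.9 and 8.92 FPKM in the control and 1.796, 3.77 and 8.597 FPKM with calcium (-2.04 ± 0.64, adjusted p = 0.1204). MKI67 (Ki-67), which coats mitotic chromosomes, was at 17.1, 30.9 and 9.92 FPKM and 2.87, 5.93 and 8.98 FPKM (-1.68 ± 0.55, adjusted p = 0.132). Calcium replicate 3 was the highest calcium library for both, and all calcium libraries were below the control.

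The number that fell rests on single libraries. It was 0 without control replicate 1, control replicate 2 or calcium replicate 1, 1 without calcium replicate 2, 5 without control replicate 3 and 18 without calcium replicate 3. The share of all genes called lower also dropped, from 2.53% to between 0% without control replicate 1 and 1.98% without calcium replicate 3. The median of the 47 stayed between -1.56 and -0.99 in these fits. The number of mitotic genes that fell was 26 with limma-voom on fragments recovered from the FPKM values and 0 with no filter on low values or with all 7 groups in a single fit. The shares of all genes called lower were 4.27%, 0.0443% and 1.05%.

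**Figure D2:**
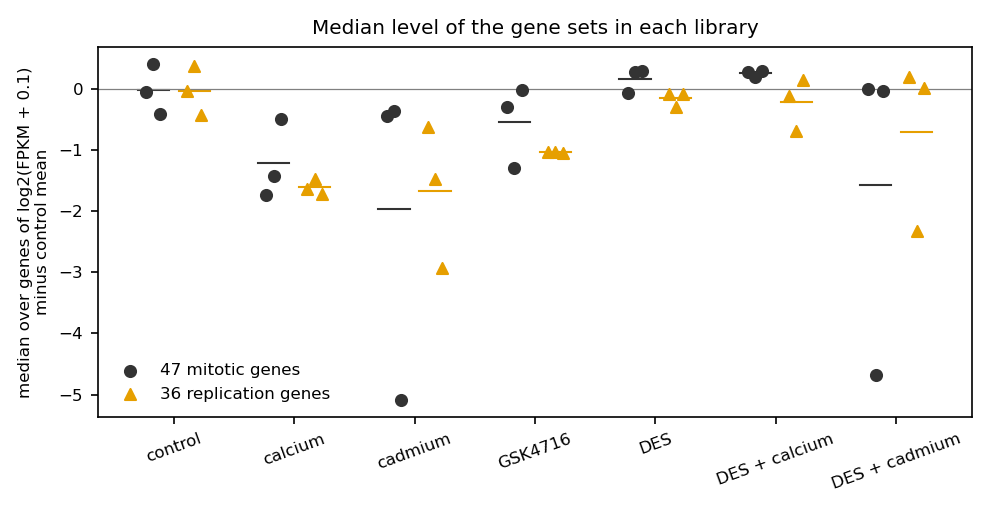
Each point is 1 library and gives the median over 47 mitotic genes (circles) or 36 replication genes (triangles) of log2(FPKM + 0.1) minus the control mean, with bars at the mean of each group. The calcium libraries lie between -1.73 and -0.49 for the mitotic genes and between -1.71 and -1.47 for the replication genes, and for the mitotic genes 2 libraries with cadmium lie below -4.

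The libraries with calcium differed in how the mitotic genes related to the genes of DNA replication, a list of 36 that act earlier in the cycle. The median deviation from the control was -1.73, -1.42 and -0.49 for the mitotic genes in calcium replicates 1, 2 and 3, and -1.64, -1.47 and -1.71 for the replication genes. Replicate 3 thus had low replication genes and mitotic genes closer to the control. Of the 36 replication genes 28 fell with calcium (median -1.66), led by the helicase subunit MCM2 (-2.65).

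Of 96 other genes of the pathway tested, 27 fell with calcium and 2 rose. Of 25 further kinetochore genes tested 9 fell and 0 rose, led by CENPM (-2.04 ± 0.37, adjusted p = 0.03099), CENPU (-1.99) and ZWINT (-1.69). Of 17 condensin and cohesin genes 6 fell, led by CDCA5 (sororin, which protects cohesion) at -2.24 ± 0.20, adjusted p = 0.00951. Of 24 centrosome and spindle pole genes 7 fell, led by SPAG5 (-1.56), KIFC1 (-1.55) and KIF18B (-1.49). None of the 13 genes of the anaphase-promoting complex passed, with 3 lower at an unadjusted p under 0.05, and their median was -0.26.

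Among 17 regulators of these genes 5 fell and 2 rose with calcium. MYBL2 (B-MYB) fell (-1.66 ± 0.25, adjusted p = 0.0219), as did the MuvB subunit LIN9 (-1.54 ± 0.27, adjusted p = 0.0306). CDKN1A (p21), an inhibitor of cyclin-dependent kinases, was at 7.48, 12.6 and 11.9 FPKM in the control and 57.9, 129 and 108 FPKM with calcium, and rose (3.15 ± 0.35, adjusted p = 0.01201). The lowest calcium library was more than 4 times the highest control library. WEE1, a kinase that inhibits CDK1, rose by 1.29. The part of these regulators in the fall of the mitotic genes was not tested.

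With GSK4716 no mitotic gene passed the limma test. By limma 0% of all genes were called lower. Limma-voom also called 0 of the 47, where it called 0.327% of all genes lower. At an unadjusted p under 0.05, 7 of 47 were lower and 0 higher. Counts at an unadjusted p, here and elsewhere, stand without a share of all genes, so an excess over all genes cannot be read from them. The median of the 47 was -0.53 and 45 were below 0. All 3 GSK4716 libraries lay below the control for 8 genes, where 11.5% of all genes did so.

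The genes at an unadjusted p under 0.05 were SPC24 (-1.01 ± 0.20, adjusted p = 0.152), CDK1, INCENP, AURKB, SPC25, UBE2C and FOXM1. CDK1 was at 14.1, 11.2 and 11.98 FPKM with GSK4716, below all control libraries. AURKB was at 5.297, 3.62 and 5.71 FPKM and FOXM1 at 12.02, 6.11 and 16.6 FPKM. These genes were low in all 3 libraries. For 31 of the 47 genes replicate 2 was the only library below the control range. CCNB1 was at 52.8, 14.9 and 59.4 FPKM, CDC20 at 58.3, 19.96 and 76.6 FPKM and PLK1 at 17.2, 7.79 and 30.5 FPKM. In each of these, replicate 2 was below the control and replicates 1 and 3 were at its level or above.

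GSK4716 replicate 2 was the lowest library of the group for 46 of the 47 genes, among them AURKA (18.4, 11.5 and 25.7 FPKM) and TPX2 (39.3, 18.4 and 39.3 FPKM). Without that library the median over the 47 genes was -0.16. The replication genes did not show this split. Their median deviation from the control was -1.02, -1.02 and -1.05 in replicates 1, 2 and 3, against -0.29, -1.28 and -0.01 for the mitotic genes, and 34 of 36 had an unadjusted p under 0.05 with 0 passing the adjustment. Calcium and GSK4716 did not differ in any of the 47 by limma (2.29% of all genes did). At an unadjusted p under 0.05, 9 were lower with calcium, led by KIF20A (-1.19), MAD2L1 (-1.10) and KIF2C (-1.05). Limma-voom called 1 of them, and 5.09% of all genes.

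With cadmium the fold changes were large and 1 library set them. The median over the 47 genes was -2.08 with all libraries and -0.41 without cadmium replicate 3, beside 0.04 and 0.02 over all genes. By limma 0 of 47 passed in either fit, while 0.0204% of all genes were called lower in each. Limma-voom on all libraries also called 0, while it called 1.96% of all genes lower. At an unadjusted p under 0.05, 1 was lower with all libraries and 8 without cadmium replicate 3. The 3 cadmium libraries lay below the control for 15 of the 47 genes, against 16.7% of all genes.

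UBE2C was at 56.8, 65.6 and 0.426 FPKM in cadmium replicates 1, 2 and 3, CCNB1 at 38.4, 37.2 and 0.309 FPKM and CDC20 at 55.9, 55.3 and 0.328 FPKM. Replicates 1 and 2 were within or close to the control range for all of these, and replicate 3 was over 100 times lower. TOP2A was at 10.8, 10.7 and 0.0662 FPKM and MKI67 at 12.7, 12.99 and 0.0238 FPKM. NDC80 was at 1.67, 1.898 and 0 FPKM, with no fragment in replicate 3. BUB3, CENPE and KIF20B were the 3 genes not below both other libraries. CDC25B, at 33.98, 49.98 and 9.31 FPKM, and INCENP were lower but kept over 25% of the lower of the other libraries. BUB3 was at 28.7, 24.5 and 35.98 FPKM and thus highest in the library in which its partners BUB1 (6.68, 5.76 and 0.0303 FPKM) and BUB1B (9.54, 7.85 and 0.0951 FPKM) were lowest.

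The genes lower at an unadjusted p under 0.05 without that library were SPC24 (-1.60 ± 0.47), BIRC5 (-1.36 ± 0.31), FOXM1, BUB1B, MAD2L1, INCENP, AURKA and BUB3. BIRC5 was at 7.71, 4.95 and 0.0319 FPKM and FOXM1 at 12.1, 10.4 and 0.7203 FPKM. In replicates 1 and 2 both were below all control libraries. FOXM1 stayed above all calcium libraries in these replicates, while BIRC5 in replicate 2 was within the calcium range. MAD2L1, at 6.59, 5.65 and 0.222 FPKM, was likewise below the control in replicates 1 and 2. AURKA (14.4, 14.5 and 0.312 FPKM) was slightly below the control in both, and CDK1 (12.98, 21.8 and 0.124 FPKM) was below it in replicate 1 and within its range in replicate 2. Calcium and cadmium did not differ in any of the 47 by limma or limma-voom (2.44% and 4.02% of all genes did), and 0 had an unadjusted p under 0.05. Without cadmium replicate 3, 16 were lower with calcium than with cadmium at an unadjusted p under 0.05 and 1 was higher. In that fit 0 of the 47 and 0.218% of all genes passed the adjustment. Cadmium and GSK4716 also gave 0 calls by limma and limma-voom (0.327% and 1.41% of all genes called) and 0 at an unadjusted p under 0.05. Their median difference of -1.54 was 0.07 without cadmium replicate 3.

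Stress genes moved with the loss of mitotic transcripts in cadmium replicate 3. HMOX1 (heme oxygenase) was at 196, 816 and 2453 FPKM in cadmium replicates 1, 2 and 3, the heat shock gene HSPA1A at 111, 559 and 2130 FPKM and DDIT3 (CHOP) at 13.5, 36.97 and 141 FPKM. The metallothionein MT2A was at 2002, 2288 and 4088 FPKM. All were highest in replicate 3. The replication genes had a median deviation of -0.61, -1.47 and -2.92 from the control. In DES with cadmium the replication genes were also lowest in the library with few mitotic transcripts, with medians of 0.21, -2.32 and 0.02 in replicates 1, 2 and 3. The order of the stress genes differed there. MT2A was at 10176, 1840 and 5493 FPKM and HMOX1 at 740.0, 318 and 537 FPKM. HSPA1A was at 3027, 1591 and 4023 FPKM and DDIT3 at 37.2, 20.1 and 18.4 FPKM. None was highest in replicate 2, where the mitotic genes were low, and all but DDIT3 were lowest there. The luminal markers KRT8 (252, 278 and 321 FPKM with cadmium, 667, 385 and 249.7 FPKM with DES and cadmium) and EPCAM (74.5, 87.8 and 106 FPKM and 50.9, 103 and 120.3 FPKM) did not drop in either library. The part of any of these in the loss was not tested.

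**Figure D3:**
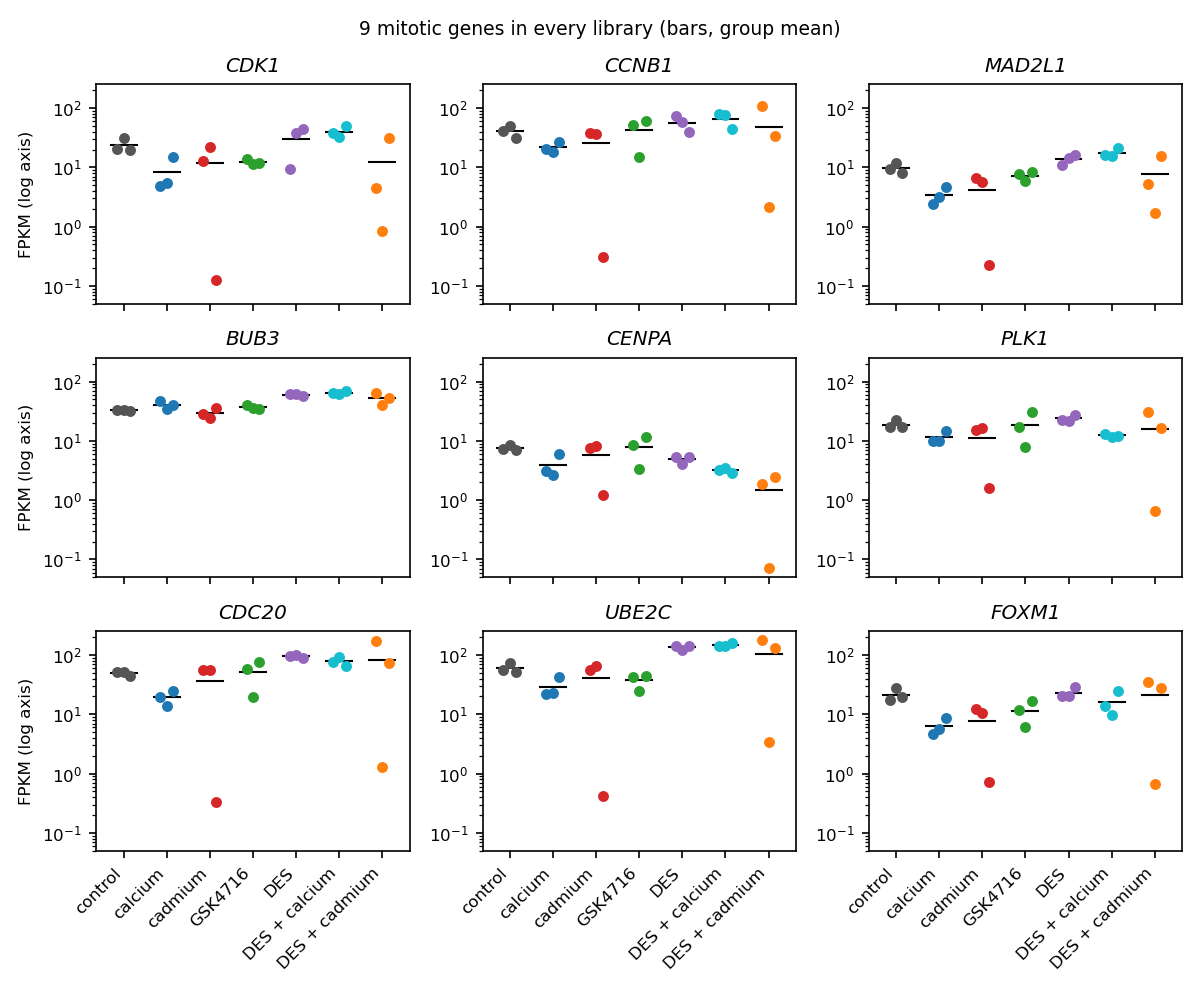
Each panel gives 1 mitotic gene, with 1 point per library, its group on the horizontal axis, FPKM on a log axis and a bar at the group mean. BUB3 stays between 24.5 and 70.0 FPKM in all 21 libraries, UBE2C spans 0.426 to 182 FPKM, and for CENPA and PLK1 all libraries with DES and calcium lie below those with DES.

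DES raised a small group of mitotic genes and lowered CENPA. Against the control 8 of 47 rose, where 16.7% of all genes did, and 1 fell (2.13%), where 12.9% did. The share that rose was thus that of all genes. They were the exit genes PTTG1 (1.43 ± 0.20, adjusted p = 0.00385), UBE2C (1.16 ± 0.19, adjusted p = 0.00615) and CDC20 (0.94 ± 0.15, adjusted p = 0.00547), the kinase NEK2 (1.03 ± 0.22, adjusted p = 0.0153), and KIF20A, BUB3, CCNB2 and TPX2. All of these had every DES library above every control library, which held for 3810 of the 14686 genes tested. The median over the 47 was 0.11 beside 0.05 over all genes. It was -0.06 with scaling by total fragments and -0.10 with quantile normalization, which both moved the median of all genes to -0.12, and 6 and 5 genes then rose, where 12.7% and 13.6% of all genes did. The number that rose was 4 without control replicate 1 and 5 without control replicate 3 or DES replicate 2, where 8.65%, 12.2% and 9.46% of all genes rose.

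PTTG1 (securin), which holds separase inactive until anaphase, was at 16.9, 18.8 and 13.2 FPKM in the control and 50.5, 45.3 and 35.9 FPKM with DES. UBE2C was at 141, 121 and 143 FPKM and CDC20 at 95.1, 99.8 and 88.97 FPKM with DES. Their DES libraries lay close together. KIF20A was at 18.8, 20.5 and 28.9 FPKM (1.01 ± 0.27, adjusted p = 0.0325), TPX2 at 74.8, 69.8 and 54.9 FPKM (0.77 ± 0.22, adjusted p = 0.0394) and BUB3 at 61.8, 62.4 and 56.4 FPKM (0.88 ± 0.13, adjusted p = 0.00481). NEK2, which parts the centrosomes, was at 14.9, 18.4 and 10.8 FPKM in the control and 25.4, 32.7 and 30.7 FPKM with DES. CENPA was at 5.24, 4.07 and 5.39 FPKM with DES and fell (-0.64 ± 0.18, adjusted p = 0.0361).

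Roles differed in direction with DES, without a test of that difference. The median fold change was 1.05 over the 4 genes of mitotic exit and -0.85 over the 7 of the kinetochore and centromere. SPC24, at -0.98 ± 0.35, adjusted p = 0.0741, was below the control in every DES library but did not pass. DES replicate 1 was far below replicates 2 and 3 in some genes. CDK1 was at 9.23, 37.96 and 44.7 FPKM, ASPM at 0.633, 4.31 and 4.55 FPKM and KIF11 at 6.704, 13.1 and 12.2 FPKM. Others did not show it, among them CCNB1 (72.5, 57.7 and 39.9 FPKM), AURKA (25.6, 17.8 and 12.7 FPKM) and FOXM1 (20.2, 20.4 and 28.7 FPKM). BUB1 (11.4, 11.6 and 7.43 FPKM), PLK1 (22.3, 21.9 and 27.6 FPKM) and BIRC5 (18.4, 13.2 and 16.3 FPKM) did not show it either. Of other kinetochore genes 2 rose and 1 fell, and of the anaphase-promoting complex 2 of 13 rose, UBE2S, which extends ubiquitin chains after UBE2C (1.37 ± 0.19, adjusted p = 0.00353), and the subunit ANAPC10 (1.24 ± 0.28, adjusted p = 0.01902).

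Between DES with calcium and DES alone no mitotic gene passed the test. The median difference over the 47 genes was 0.17. By limma 0 were called, with 1 higher and 2 lower at an unadjusted p under 0.05, and by limma-voom 0. Of all genes limma called 0.136% and limma-voom 0%. The intervals leave room for changes: for FOXM1 the 95% interval of the log2 difference was -1.45 to 0.24, for CDC20 -0.69 to 0.11 and for UBE2C -0.21 to 0.50.

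The lowest p-value of the set was that of PLK1. It was at 13.2, 11.7 and 12.1 FPKM with DES and calcium, below all 3 DES libraries (-0.95 ± 0.14, adjusted p = 0.109, unadjusted p = 5.12e-04). CENPA was at 3.17, 3.52 and 2.91 FPKM, also below all DES libraries (-0.59 ± 0.20, adjusted p = 0.313). NUSAP1, ECT2, KIF11, NUF2 and BUB3 had all 3 libraries above those of DES, with fold changes from 0.12 to 0.84 that did not pass. Of the 47 genes 5 were thus above and 2 below, against 1151 and 1772 of the 14686 genes tested.

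The same libraries set against calcium alone gave the largest number of calls. By limma 34 of 47 were higher with DES and calcium than with calcium (72.3%) and 0 lower, where 18.5% of all genes were higher. The median was 1.56 beside -0.01 over all genes. No library overlapped for 37 of the 47, all higher, against 25.7% of all genes. Of the 11 genes that fell with calcium, 10 were among the 34. Both comparisons use the same calcium libraries.

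UBE2C was at 142, 142 and 163 FPKM with DES and calcium (2.40 ± 0.26, adjusted p = 0.00231), more than 3 times the highest calcium library. CDK1 was at 37.2, 33.03 and 49.5 FPKM (2.39 ± 0.43, adjusted p = 0.00839) and MAD2L1 at 16.5, 15.7 and 21.1 FPKM (2.39 ± 0.26, adjusted p = 0.00227). All of these were also at or above the highest control library. NEK2 was at 4.24, 4.33 and 11.8 FPKM with calcium and 32.7, 35.4 and 28.2 FPKM with DES and calcium (2.39 ± 0.40, adjusted p = 0.00647). TOP2A was at 21.2, 16.5 and 21.6 FPKM (2.31 ± 0.52, adjusted p = 0.0165), TPX2 at 68.3, 65.9 and 57.2 FPKM (1.89 ± 0.21, adjusted p = 0.00227) and CDC20 at 77.7, 91.8 and 64.7 FPKM (2.02 ± 0.25, adjusted p = 0.00287). These ranges did not touch those with calcium.

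By role, 5 of 6 cyclin and CDK1 genes, 2 of 3 kinases, 4 of 5 checkpoint genes, 4 of 4 passenger complex genes and 4 of 4 exit genes were higher. So were 5 of 7 kinesins, 5 of 6 spindle factors, 1 of 2 cytokinesis genes, 1 of 2 chromosome genes and FOXM1. The kinetochore and centromere had 2 of 7, NDC80 and NUF2. CCNB1 was at 78.5, 76.3 and 44.03 FPKM (1.56 ± 0.27, adjusted p = 0.00713), BUB1 at 14, 14.1 and 8.79 FPKM (1.75 ± 0.34, adjusted p = 0.00984) and KIF11 at 17.2, 13.1 and 17.6 FPKM (1.85 ± 0.42, adjusted p = 0.0171). BIRC5 was at 16.5, 17.5 and 17.1 FPKM (1.70 ± 0.20, adjusted p = 0.00279) and AURKB at 13.9, 7.34 and 21.3 FPKM (1.93 ± 0.47, adjusted p = 0.0221). NDC80 was at 3.46, 4.42 and 4.98 FPKM and KIF20A at 16.4, 17.4 and 19.2 FPKM. Each of these 7 genes had every library above every calcium library.

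The genes that did not pass fall into groups by level. PLK1 (0.13 ± 0.19, adjusted p = 0.609), CENPA (-0.19 ± 0.33, adjusted p = 0.686), SPC24 (-0.12 ± 0.36, adjusted p = 0.809) and ASPM (-0.02 ± 0.71, adjusted p = 0.991) had differences near 0. ASPM was at 2.16, 3.95 and 2.48 FPKM with DES and calcium, within the range of calcium alone. MKI67, at 9.73, 10.6 and 11.2 FPKM, was above all calcium libraries (0.96 ± 0.39, adjusted p = 0.0995). SPC25 and TTK had an unadjusted p under 0.05 with 1.57 and 1.56. ANLN was at 7.31, 8.64 and 11.03 FPKM (0.89 ± 0.57, adjusted p = 0.262), and CDC25B, CENPE, CENPF, KIF14 and KIF20B lay between 0.34 and 1.09. FOXM1, at 13.7, 9.91 and 24.8 FPKM, and AURKA, at 22.4, 22.3 and 15.8 FPKM, were higher than with calcium (1.28 ± 0.38, adjusted p = 0.0394 and 1.09 ± 0.28, adjusted p = 0.0241). BUB3 was at 63.3, 62.5 and 70.03 FPKM and rose by 0.68.

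The count of 34 was 12 with no filter on low values, 3 with all 7 groups in a single fit, and 21 to 36 with each library left out. Leaving out DES with calcium replicate 1 gave 21. Of all genes, 2.64% were called higher with no filter, 18.2% with all 7 groups and 11.5% to 16.2% with each library left out. With all 7 groups the share of the mitotic genes was thus below that of all genes. In the other parts of the pathway, 16 of 25 further kinetochore genes were higher, led by CENPU (3.32 ± 0.25, adjusted p = 0.00167), CENPH (2.71) and ZWINT (2.49). The same held for 7 of 17 condensin and cohesin genes, 12 of 24 centrosome genes, 3 of 13 genes of the anaphase-promoting complex and 26 of 36 replication genes. CDKN1A was at 24.05, 36.6 and 36.8 FPKM with DES and calcium and lower than with calcium (-1.54 ± 0.33, adjusted p = 0.0144), MYBL2 was higher (1.66) and CKS1B, a subunit of cyclin-dependent kinases, was higher (2.47 ± 0.12, adjusted p = 0.00167).

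**Figure D4:**
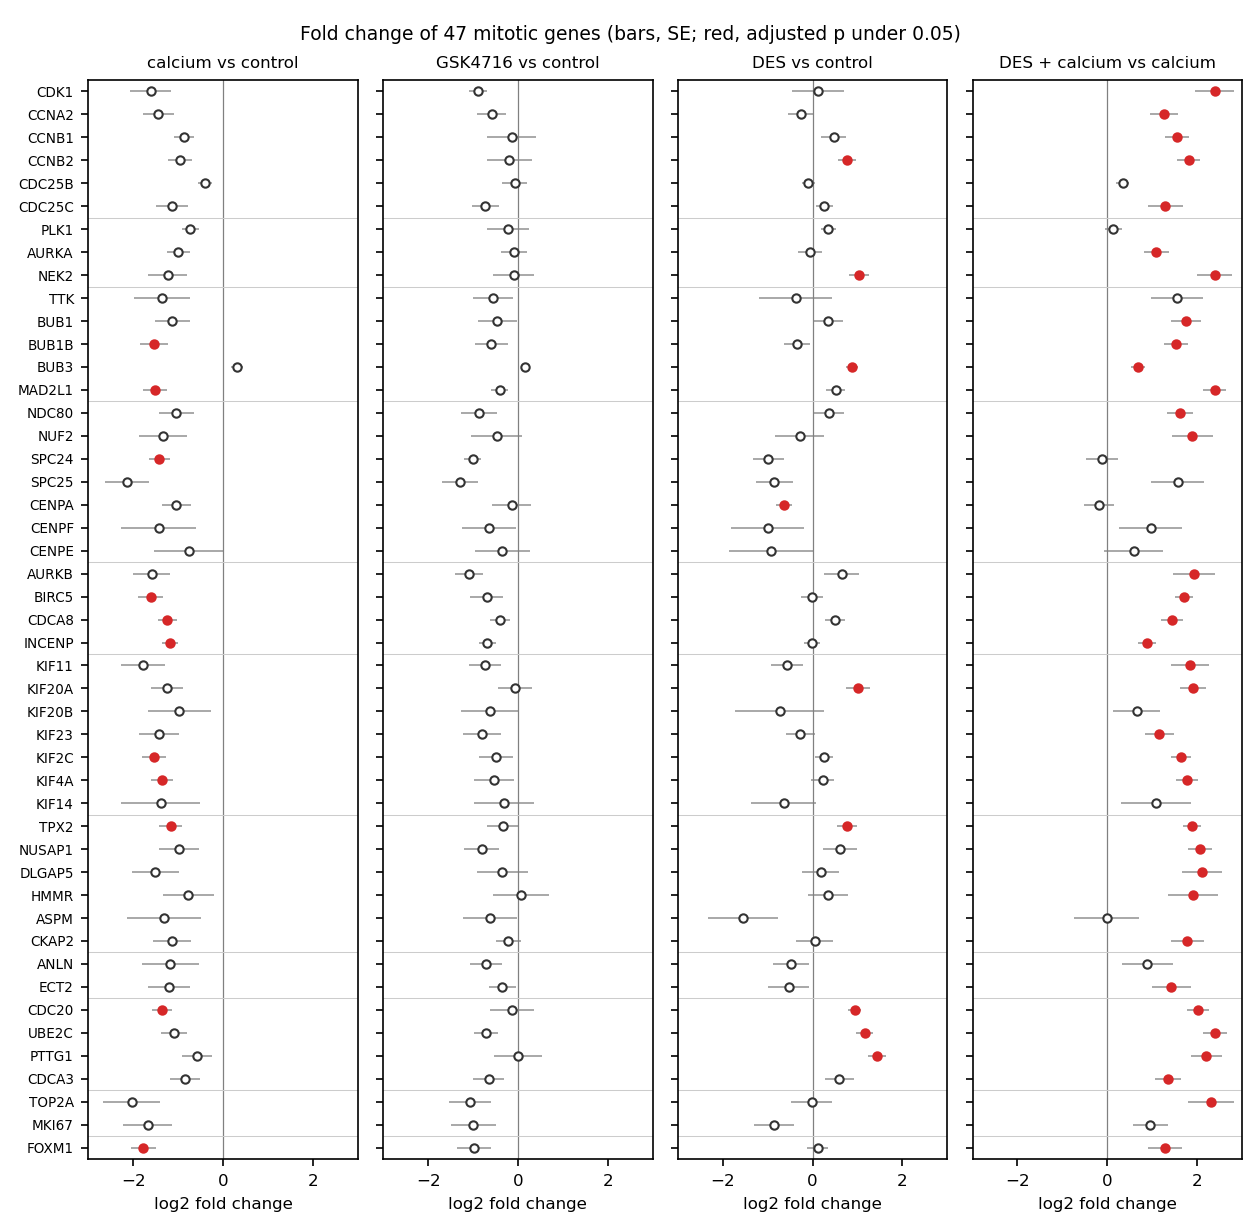
Each row is 1 of the 47 tested mitotic genes, sorted by role, with the log2 fold change on the horizontal axis, its SE as a bar, and red points for an adjusted p under 0.05, in 4 comparisons. With calcium 11 points are red, all below 0, with GSK4716 none, with DES 9, and with DES and calcium against calcium 34, all above 0.

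Whether calcium acted differently with and without DES was tested as an interaction, the effect of calcium with DES minus its effect without. It was positive for 6 of the 47 genes (12.8%) and negative for 0, where 1.25% of all genes were called positive. KIF11 (2.42 ± 0.60, adjusted p = 0.0491), BUB1B (1.88 ± 0.42, adjusted p = 0.0342), MAD2L1 (1.87 ± 0.35, adjusted p = 0.0183), BIRC5 (1.72 ± 0.33, adjusted p = 0.0196), KIF4A (1.54 ± 0.37, adjusted p = 0.0442) and KIF2C (1.39 ± 0.30, adjusted p = 0.0323) passed. They are motors of the spindle, checkpoint proteins and a subunit of the passenger complex. In all but KIF11 calcium alone had lowered the gene.

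A further 24 genes had a positive interaction at an unadjusted p under 0.05, among them CDC20 (1.08 ± 0.29, adjusted p = 0.0652), UBE2C (1.24 ± 0.34, adjusted p = 0.0651) and CDK1 (2.27 ± 0.79, adjusted p = 0.137). PLK1 (-0.22 ± 0.26, adjusted p = 0.684) and BUB3 (-0.19 ± 0.19, adjusted p = 0.624) alone were below 0. The number called was 1 to 14 with each library left out, with 1 without control replicate 2 or DES replicate 2 and 14 without calcium replicate 3. It was 2 without control replicate 1, calcium replicate 1 or 2, DES replicate 3 or DES with calcium replicate 1 or 3. It was 0 with no filter on low values or with all 7 groups in a single fit. The share of all genes called positive was 0.293% to 2.10% with each library left out, 0.131% with no filter and 0.136% with all 7 groups. Of other kinetochore genes 10 of 25 had a positive interaction, led by CENPU (2.73), and of the replication genes 19 of 36. CDKN1A had a negative one (-2.55 ± 0.54, adjusted p = 0.02997).

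Against DES all 47 genes were below 0 with DES and cadmium, with a median of -1.62. Without DES with cadmium replicate 2, 26 were below 0 and the median was -0.06. Limma called 0 and limma-voom 0, with 0 at an unadjusted p under 0.05 and 2 lower without that library. Of all genes limma called 0.266% and limma-voom 0%. CENPA was at 1.85, 0.0727 and 2.44 FPKM, below DES in all 3 libraries (-2.38 ± 1.00, adjusted p = 0.4802). Without replicate 2 its difference was -1.16 ± 0.30.

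In replicate 1 several genes were above all 3 libraries with DES. UBE2C was at 182, 3.42 and 131 FPKM, CDC20 at 170.1, 1.31 and 74.2 FPKM and TPX2 at 118, 4.56 and 60.4 FPKM. CCNB1 was at 108, 2.12 and 33.3 FPKM, AURKA at 39.8, 2.04 and 16.7 FPKM and PLK1 at 30.3, 0.667 and 16.6 FPKM, all highest in replicate 1. The values in replicate 3 were lower than in replicate 1 for all 6. In the same replicate ASPM was at 0.2798 FPKM, CDK1 at 4.44 FPKM and MKI67 at 3.35 FPKM, below replicate 3 at 2.11, 31.1 and 11.2 FPKM. The set was thus divided within that library.

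The remaining genes followed one or the other order. FOXM1 was at 34.7, 0.662 and 28.02 FPKM, AURKB at 18.6, 0.161 and 21.6 FPKM and BIRC5 at 33.00, 0.132 and 18.5 FPKM. BUB1 was at 13.5, 0.143 and 7.69 FPKM and KIF20A at 25.8, 0.328 and 14.6 FPKM. Replicate 2 was far below the others for these. MAD2L1 was at 5.22, 1.71 and 15.8 FPKM, KIF11 at 6.82, 0.727 and 13.4 FPKM and ANLN at 4.43, 0.09598 and 10.3 FPKM, with replicate 3 the highest. NDC80 was at 4.09, 0.0601 and 4.76 FPKM and TOP2A at 11.2, 0.0672 and 16.8 FPKM. BUB3, at 64.3, 39.6 and 52.01 FPKM, was again little affected in replicate 2.

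Against cadmium alone 0 of the 47 passed with limma or limma-voom, which called 9.89% and 12.7% of all genes. BUB3 alone was higher at an unadjusted p under 0.05 in limma (0.79 ± 0.26, adjusted p = 0.0971). The median difference was 0.42. It was -1.09 without cadmium replicate 3, 1.95 without DES with cadmium replicate 2 and 0.57 without both, and it was also below 0 without DES with cadmium replicate 1 or 3, so its sign rests on single libraries. The interaction of cadmium and DES gave 0 of 47 by limma or limma-voom (1.18% and 0.851% of all genes) and 0 at an unadjusted p under 0.05. Its median was 0.26 with all libraries, and 4 genes were positive and 1 negative at an unadjusted p under 0.05 without both libraries.

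In several libraries the deviation from the group followed the GC content of the mitotic transcripts. GC content ranged from 34.3% in KIF20B to 59.1% in CDC25B (GENCODE release 44, canonical transcripts). Across the 47 genes, Spearman's correlation between GC content and the deviation from the mean of the group was 0.69 in calcium replicate 1 and -0.73 in calcium replicate 3. It was 0.57 in DES replicate 1, -0.74 in DES replicate 2 and 0.60 in DES with cadmium replicate 1. Control libraries also showed it, with -0.48 in replicate 2 and 0.52 in replicate 3. The genes share the library and its depth, so these are descriptions. Each deviation is from the mean of a group of 3 libraries that includes it, so opposite signs within a group are not separate observations. Over 14593 genes the values for the same libraries were 0.43, -0.57, 0.23, -0.39, 0.16, -0.13 and 0.21.

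**Figure D5:**
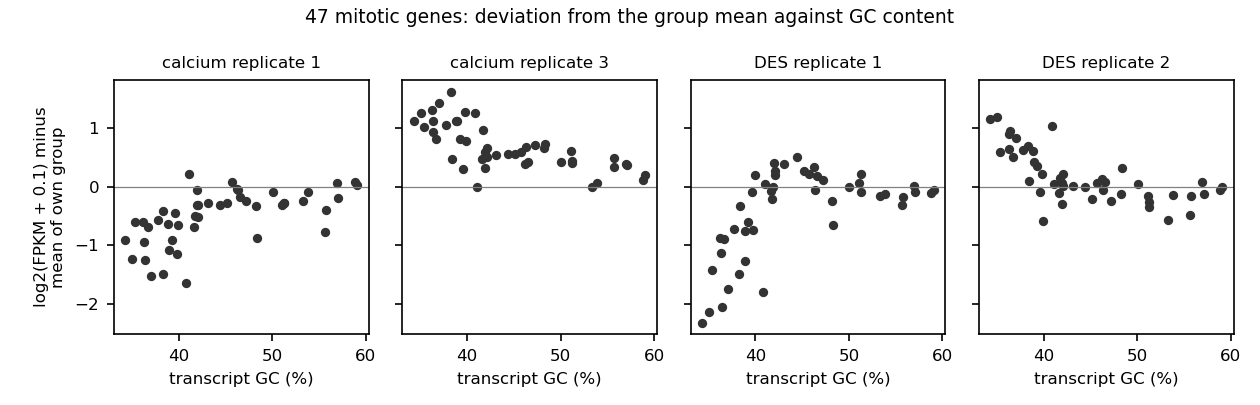
Each point is 1 of 47 mitotic genes, with the GC content of its transcript in percent on the horizontal axis and its log2(FPKM + 0.1) minus the mean of its own group on the vertical axis, in 4 libraries. In calcium replicate 1 and DES replicate 1 the genes of low GC content lie lowest, and in calcium replicate 3 and DES replicate 2 they lie highest.

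A pair of genes shows the pattern. ASPM, with 37.0% GC, was at 0.633 FPKM in DES replicate 1 and 4.55 FPKM in replicate 3, while CDC20, with 56.9% GC, was at 95.1 and 88.97 FPKM. After a correction of each library for transcript GC content and length, added once the data had been seen, 26 of 47 fell with calcium in place of 11, 36 were higher with DES and calcium than with calcium in place of 34, and 11 had a positive interaction in place of 6. Of all genes, 6.15% were then called lower with calcium in place of 2.53%, 20.5% higher in place of 18.5%, and 2.16% positive in place of 1.25%. The medians were -1.26, 1.44 and 1.36. The part of GC content in the calls of the single genes was not tested further.

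PRC1 was read from the fit with no filter on low values and was called in no comparison. It was at 0.202, 0.291 and 0.197 FPKM in the control, 0.0649, 0 and 0.137 FPKM with calcium and 0.4801, 0.821 and 1.34 FPKM with DES. The DES libraries were all above the control, with a fold change of 1.49 ± 0.41 and an adjusted p of 0.145.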

How the data were processed

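RNA-seq of poly-A RNA was deposited for 21 libraries as FPKM per gene. According to the deposited notes the authors aligned reads with HISAT2 2.0.5 to GRCh38.p14 and counted fragments with featureCounts 1.5.0-p3; whether the counting used strand is stated in more than one way. The deposited table held FPKM values from the authors, and fragments were recovered from FPKM, gene length and the library totals (100% whole within a tolerance of 0.01). It held 0 columns of other samples. The methods name count-based tools; because the values are FPKM, log2(FPKM + 0.1) was tested with limma 3.58.1 (R 4.3.3; lmFit, eBayes with trend) in 13 comparisons, over 14686 genes with a mean of at least 0.5 FPKM, with the groups compared in each fit and Benjamini-Hochberg adjustment at 0.05. An exact permutation test of 3 against 3 libraries cannot go below p = 0.1. Groups followed the sample labels.

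Alternatives were limma-voom on the recovered fragments (trimmed mean of M values), log2(FPKM + 1), no filter, a mean of at least 2 FPKM, other scalings, all 7 groups in a fit, array weights, a fold change limit, a replicate block and leaving out each library. The correction for GC content and length (GENCODE release 44) and the joint removal of 2 libraries were added after the data were seen. Same-numbered libraries deviated together (every r over 0.1) only between DES and DES with calcium (0.10 to 0.28) and between DES and DES with cadmium (0.12 to 0.47). The genes and lists were chosen with earlier results of these data known. Genes shown in every library were a fixed 21 spread over the roles, and in each comparison the called genes that moved most, 3 up and 3 down; other genes were named after their values were seen. Figures used matplotlib 3.10.9.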

Additional observations from a re-analysis of the deposited data

Results flagged for a closer look

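The effect of calcium differed with and without DES, by the interaction term in limma with Benjamini-Hochberg adjustment, for 6 mitotic genes: KIF11 (2.42), MAD2L1 (1.87), BUB1B (1.88), BIRC5 (1.72), KIF4A (1.54) and KIF2C (1.39), each as a log2 difference of the effect with DES minus that without. All 6 differences were positive, where 1.25% of all genes were called positive. The count was 1 to 14 with each library left out. No mitotic gene passed without the filter on low values or with all 7 groups in a single fit.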

How the results depend on the processing

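The values below are numbers of the 47 tested genes with an adjusted p under 0.05 in limma. Of 261 counts, the main ones included, 211 stayed within 1.5 times the main count. Over the 47 genes, 13 comparisons and all alternatives, a call was lost 290 times and gained in the same direction 180 times, and 711 values that were never called changed sign. With all 7 groups in a fit, 0 were called for calcium against control in place of 11, 1 for DES against control in place of 9, 3 for DES with calcium against calcium in place of 34, 2 for DES with cadmium against cadmium in place of 0, and 0 for the interaction of calcium and DES in place of 6. That fit called 1.05% of all genes lower for calcium, 27.6% for DES, 18.2% higher for DES with calcium against calcium, 37.2% for DES with cadmium against cadmium and 0.136% positive for the interaction. With no filter on low values the counts were 0 for calcium, 4 for DES, 12 for DES with calcium against calcium and 0 for that interaction. Of all genes 0.0443% were then lower for calcium, 4.67% called for DES, 2.64% higher for DES with calcium against calcium and 0.131% positive for the interaction. A mean of at least 2 FPKM gave 18 for calcium (4.50% of all genes lower). Limma-voom gave 26 for calcium (4.27% of all genes lower) and 1 for calcium against GSK4716 (5.09% of all genes called). A log2 fold change of at least 1 left 4 for DES, without a share of all genes at that limit.

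Array weights gave 33 for calcium, 9 for cadmium (8 lower and 1 higher), 1 for GSK4716, 25 for DES, 1 for DES with calcium against DES, 2 for DES with cadmium against cadmium, 1 for calcium against cadmium, 1 for cadmium against GSK4716, 30 for the interaction of calcium and DES and 1 for that of cadmium and DES. These weights also called 6.44% of all genes lower for calcium, and in either direction 56.7% with cadmium, 5.76% with GSK4716, 70.4% with DES, 4.89% for DES with calcium against DES, 56.1% for DES with cadmium against cadmium, 23.7% for calcium against cadmium, 26.2% for cadmium against GSK4716, 17.9% for the calcium interaction and 43.3% for the cadmium interaction. The gene called higher with cadmium under array weights was CDC25B (0.79, adjusted p = 0.0336 by limma), the 1 reversal, which had -0.21 with equal weights and was not called. The correction for GC content and length gave 26 for calcium, 11 for the calcium interaction, 1 for calcium against GSK4716 and 1 for DES with cadmium against cadmium. Of all genes it called 6.15% lower for calcium and 2.16% positive for the calcium interaction. It called 6.91% of all genes for calcium against GSK4716 and 8.02% for DES with cadmium against cadmium. Leaving out each library gave 0 to 18 for calcium, 4 to 10 for DES, 21 to 36 for DES with calcium against calcium, 1 to 14 for the calcium interaction and 0 for the others. The cause of these shifts was not tested.

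With the replicate number as a block, 1 gene was called for calcium in place of 11 (0.483% of all genes lower), and with GC correction as well, 17 (5.05%). That block with GC correction also gave 11 for the calcium interaction (2.76% of all genes positive) and 1 for calcium against GSK4716 (2.89% of all genes called). In the comparisons in which the numbers pair the libraries, the replicate block left the count at 0. With 3 libraries a group, changes smaller than the spread between libraries were not detectable.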
